A study of Mus musculus with 2 samples.

Results

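The expression in the embryonic mouse heart of 10 genes whose products fold muscle myosin or set the length of actin filaments is described here: Unc45a, Unc45b, Smyd1, Hsp90aa1, Hsp90ab1, Hspa8, Bag3, Lmod2, Lmod3 and Tmod1. They were chosen by name, as myosin folding factors with their heat shock partners, leiomodins and a tropomodulin, and were found by gene identifier. All 10 had a row among the 43346 mouse gene rows of each library. The study measured total RNA from hearts of B6NCrl mouse embryos at embryonic day 12.5, healthy and with no treatment or altered allele named in the labels. Its 2 libraries, called biological replicates 1 and 2, form 1 group. Each was made from tissue of male and female embryos together, which the labels assign to the same donor identifier, and its input was 10 ng of RNA of more than 200 nt, spiked with ERCC standards. With 1 group there is no contrast between conditions, so no p-value is given, and SDs measure only the spread between these 2 libraries.

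The head of the myosin motor does not fold unaided. UNC45 proteins hold it for folding together with HSP90 and HSC70, the chaperones encoded by Hsp90aa1, Hsp90ab1 and Hspa8, and SMYD1 is a myosin-binding lysine methyltransferase needed for heart and muscle formation. BAG3 works with HSC70 to clear damaged filament proteins, while tropomodulin caps the pointed ends of actin filaments and leiomodins promote actin assembly there.

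Total estimated reads were 34751234 in replicate 1 and 31847875 in replicate 2, of which 33480066 and 30665239 fell on mouse genes. The heart muscle markers were present at 8 of 8, with summed levels of 28084 TPM in replicate 1 and 28003 TPM in replicate 2 (TPM is a length-scaled share of all transcripts in a library). Of 9 skeletal muscle markers only Myog, at 1.00 and 1.74 TPM, reached 1 TPM in both libraries, and the 9 summed to 2.99 and 4.69 TPM. Red cell markers summed to 32461 and 29154 TPM. In bulk tissue a low level from many cells and a high level from few cells cannot be told apart.

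Sequences are shown first, from the GENCODE M21 transcripts (GRCm38). UNC45 and other proteins with TPR domains dock on the extreme tail of HSP90 and of HSC70, so the last 45 coding bases before the stop codon are given with the last 4 codons in capitals.
Hsp90ab1: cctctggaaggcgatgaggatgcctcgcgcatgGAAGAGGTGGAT
Hsp90aa1: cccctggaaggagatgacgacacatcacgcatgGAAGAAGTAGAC
Hspa8: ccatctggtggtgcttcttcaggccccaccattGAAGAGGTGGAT
The capitals of Hspa8 and Hsp90ab1 differed at 0 of 12 bases and those of Hsp90ab1 and Hsp90aa1 at 3 of 12. None of these differences changes an amino acid, so the last 4 codons encode the same tail in all 3 genes. Over all 45 bases the differences were 10 between Hsp90ab1 and Hsp90aa1, 20 between Hspa8 and Hsp90ab1, and 25 between Hspa8 and Hsp90aa1.

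The 2 complete coding forms of Hspa8 differ by a stretch of 57 bases, or 19 codons, at chr9:40802739-40802795 on the plus strand. It is shown in capitals with 15 bases on either side, and the second form joins the same flanks.
Hspa8-201: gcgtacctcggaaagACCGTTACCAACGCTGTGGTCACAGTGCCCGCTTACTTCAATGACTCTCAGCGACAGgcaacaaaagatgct
Hspa8-202: gcgtacctcggaaaggcaacaaaagatgct
Hspa8-201 also starts 318 bases upstream of Hspa8-202, so any share given to either form rests on both differences together.

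All 10 members reached 1 TPM in both libraries, as did 57.5% of the 21461 nuclear protein-coding genes. Their median level was 126.8 TPM, beside 3.64 TPM over all those genes and 18.86 TPM over the detected ones. Together they took 0.504% ± 0.00358 of mouse-gene reads (SD, n = 2), and the highest level was 120.6 times the lowest. The order by mean TPM was Hspa8, Hsp90ab1, Hsp90aa1, Unc45b, Tmod1, Smyd1, Lmod2, Bag3, Unc45a and Lmod3. Neighbours in that order were told apart when their log2 ratio did not change sign between libraries and its mean exceeded 3 standard errors, taken from the spread between libraries of genes of like level. That held for 6 of 9 neighbouring pairs. It did not hold for Unc45b over Tmod1, Bag3 over Unc45a, or Unc45a over Lmod3.

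**Figure D1:**
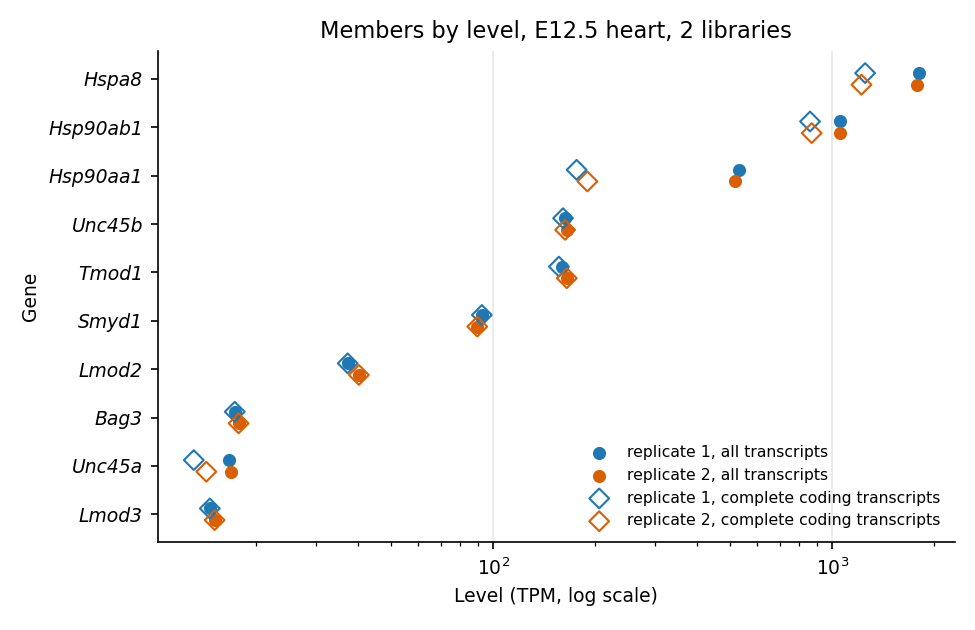
Level of each of the 10 genes in TPM (x axis, log scale) in replicates 1 and 2, over all transcripts (filled circles) and over complete coding transcripts alone (open diamonds). The 2 libraries nearly coincide for every gene, and the diamonds fall far below the circles for Hsp90aa1, at 182.9 against 525.1 TPM on average.

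Unc45b, the striated muscle form of UNC45, lies at chr11:82910550-82943403 on the plus strand. It had 162.36 TPM in replicate 1 and 164.89 TPM in replicate 2, a mean of 163.6 ± 1.79 TPM (SD, n = 2). Unc45a, the form used by most cells, lies at chr7:80325292-80341005 on the minus strand and had 16.59 and 16.84 TPM, a mean of 16.7 ± 0.177 TPM (SD, n = 2). Both libraries of Unc45b were far above both of Unc45a: the ratio was 9.74 ± 0.00403 (SD, n = 2), or 3.28 on the log2 scale with a standard error of 0.06. Their coding sequences were 66.3% identical, with a longest identical run of 26 bases, well under the fragment length of 100 bases that the deposited effective lengths imply. That run is cggcgctgggcagtggagggcctggc, the longest exact match of the 2 coding sequences. Untranslated regions were not compared, so the run does not bound which reads could fit both genes. The deposited posterior SD of a count scores uncertain read division. It was 0 reads in both libraries for Unc45a, and 2.25 and 1.77 reads for Unc45b. Unc45b-201 held 98.3% ± 0.105 of its gene's TPM. Unc45a-201 held 80.9% ± 4.44, and the short models Unc45a-206 and Unc45a-203 held 7.63% ± 0.216 and 6.83% ± 1.17 (SD, n = 2).

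Smyd1 (chr6:71213940-71322233, minus strand) had 92.62 and 89.77 TPM, a mean of 91.2 ± 2.02 TPM (SD, n = 2). Unc45b stood 1.79 ± 0.0592 times above it, and the pair was told apart. Of its complete coding transcripts, Smyd1-202 held 51.9% ± 0.453 of Smyd1 TPM and Smyd1-201 held 47.6% ± 0.153 (SD, n = 2). The shares were 51.6% and 47.7% for these forms in replicate 1 and 52.2% and 47.5% in replicate 2. Reads were divided between the forms with a deposited posterior SD of 194.7 reads around 3604.8 for Smyd1-202 and of 193.6 around 3407.1 for Smyd1-201 in replicate 1, so which form was higher was not settled by these reads. The protein-coding gene Krcc1 lies within Smyd1 on the opposite strand and held 1409 and 1413 reads, beside 7016 and 6171 for Smyd1. The sources used here do not say whether the counts use strand. The deposited posterior SD of the whole Smyd1 count was 0 reads in both libraries. What the overlap adds to either gene was not tested. Among the genes listed with these, Naca, whose muscle form binds SMYD1, had 270.4 ± 1.73 TPM over the whole gene. The muscle form of Naca was not separated from its other forms. Smyd2, also a lysine methyltransferase, had 143.3 ± 3.59 TPM. Smyd2 stood 1.57 ± 0.00468 times above Smyd1, a pair chosen after the values were seen. Smyd5, Smyd4 and Smyd3 had 33.3 ± 2.68, 11.2 ± 1.01 and 9.56 ± 0.403 TPM (SD, n = 2), so all 8 genes of this list were detected.

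Hsp90ab1, the constitutive cytosolic HSP90, lies at chr17:45567775-45573271 on the minus strand and had 1054.00 and 1055.29 TPM, a mean of 1054.6 ± 0.912 TPM. Hsp90aa1, the cytosolic form known for its heat inducibility, lies at chr12:110690605-110702728 on the minus strand and had 531.62 and 518.58 TPM, a mean of 525.1 ± 9.22 TPM (SD, n = 2). Both libraries of Hsp90ab1 were above both of Hsp90aa1, and the ratio of gene levels was 2.01 ± 0.037 (SD, n = 2), or 1.01 on the log2 scale with a standard error of 0.04. The size of that ratio depended on which transcripts were counted. Over complete coding transcripts alone it was 4.73 ± 0.207, and with all reads divided by the length of the leading complete coding transcript it was 3.70 ± 0.0486.

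The reads of Hsp90aa1 were spread over several models of unlike length. Hsp90aa1-208, a model of 711 nt with an open-ended coding sequence, held 48.7% ± 0.233 of the gene's TPM but 20.0% ± 0.824 of its reads. Its first exon starts 6333 bases upstream of Hsp90aa1-202, and its other exons lie within exons of Hsp90aa1-202. Reads within those other exons fit both models, so the share given to Hsp90aa1-208 rests on how such reads were divided. Hsp90aa1-202, a complete coding transcript of 3281 nt, held 24.9% ± 0.545 of TPM and 53.2% ± 3.10 of reads. The retained-intron model Hsp90aa1-206 held 15.1% ± 0.486 of TPM, and Hsp90aa1-201, the other complete coding transcript, held 9.95% ± 2.96 (SD, n = 2). Hsp90aa1-201 had 7.86% in replicate 1 and 12.04% in replicate 2, which made it the least steady of the 4. Its deposited posterior SD was 338.1 reads around 2716.7 in replicate 1 and 327.45 around 3670.5 in replicate 2. The part of read division in that change was not tested. Complete coding transcripts thus held 34.9% ± 2.41 of Hsp90aa1 TPM, against 82.0% ± 0.57 for Hsp90ab1 and 69.0% ± 0.789 for Hspa8 (SD, n = 2). By reads they held the larger part of all 3 genes, 71.4% ± 1.69 for Hsp90aa1, 94.8% ± 0.194 for Hsp90ab1 and 92.1% ± 0.353 for Hspa8. Of the 7 members with several transcripts, Hsp90aa1 alone had the smaller part of its TPM on complete coding transcripts, as did 14.3% of 6323 protein-coding genes at 10 TPM or more.

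**Figure D2:**
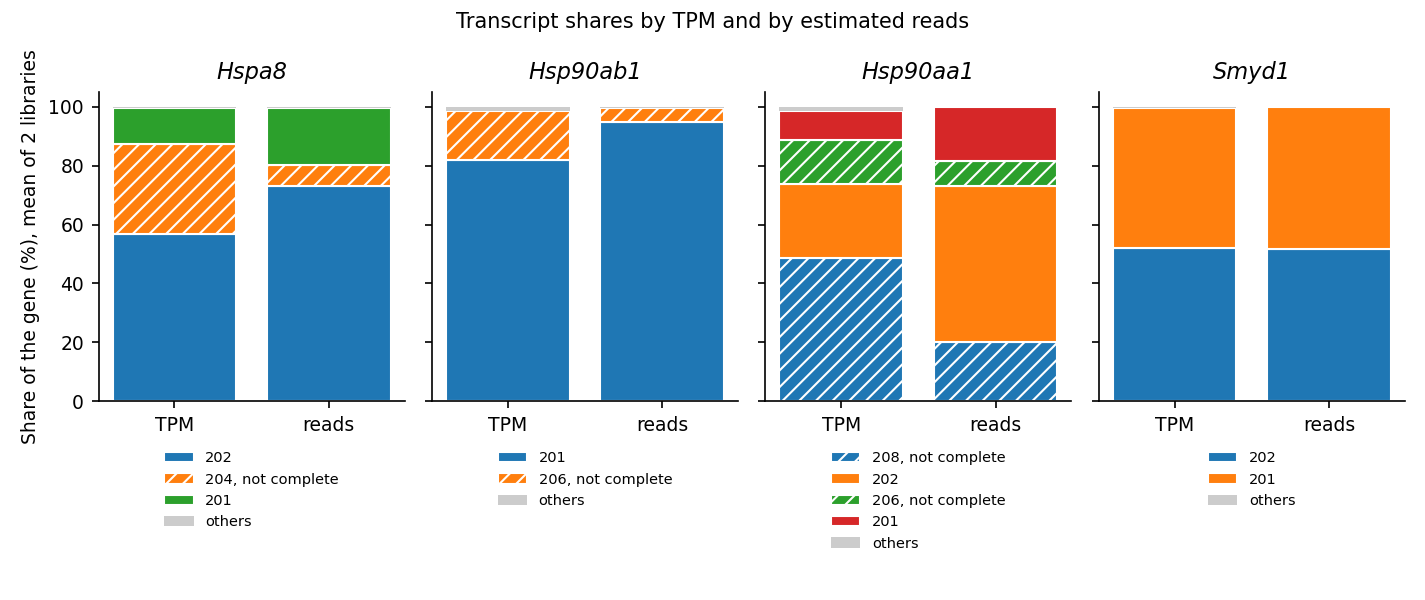
Share of each gene (y axis, percent, mean of 2 libraries) held by its transcripts, by TPM (left bar) and by estimated reads (right bar), for Hspa8, Hsp90ab1, Hsp90aa1 and Smyd1. Hatched pieces are models that are not complete coding transcripts; Hsp90aa1-208 takes 48.7% of TPM and 20.0% of reads, while the forms of Smyd1 split almost evenly on both scales.

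**Figure D3:**
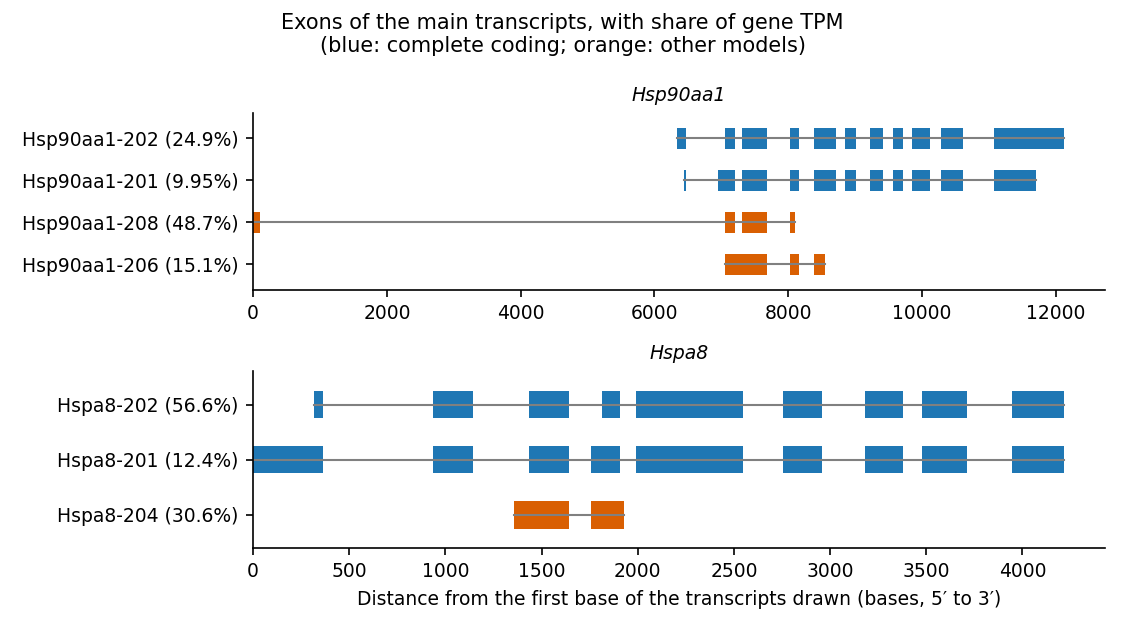
Exons (boxes) of the main transcripts of Hsp90aa1 and Hspa8 against distance in bases from the first base drawn, in the direction of transcription, with each transcript's share of gene TPM. Blue marks complete coding transcripts and orange other models; Hsp90aa1-208 begins 6333 bases before Hsp90aa1-202 and ends within its first exons.

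In Hsp90ab1, Hsp90ab1-201 held 82.0% ± 0.57 of TPM and 94.8% ± 0.194 of reads, and the nonsense-mediated decay model Hsp90ab1-206 held 16.6% ± 0.463 of TPM and 4.79% ± 0.157 of reads. The coding sequences of Hsp90ab1 and Hsp90aa1 were 76.6% identical. Their longest identical run was 33 bases, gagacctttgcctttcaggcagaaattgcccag, which covers coding sequence alone and does not bound the reads they could share. The deposited posterior SD of the count was 0 and 0.03 reads for Hsp90ab1, and 14.1 and 15.45 reads for Hsp90aa1. Annotated pseudogene copies elsewhere in the genome were closer in sequence. Hsp90aa1 had 5 annotated pseudogenes at 80% identity or more over at least 200 bases, which held 0.892% ± 0.0705 of the reads of gene and copies together. Most of these were on Gm12346, 99.5% identical, with 141.0 and 145.3 reads. The 5 copies of Hsp90ab1 held 6 reads in replicate 1 and 0 in replicate 2. The other HSP90 genes were Hsp90b1, the form of the endoplasmic reticulum, at 473.4 ± 6.92 TPM, and Trap1, the mitochondrial form, at 81.5 ± 2.64 TPM (SD, n = 2).

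Hspa8, which encodes the constitutive HSC70, lies at chr9:40800984-40810087 on the plus strand and led the members with 1797.42 and 1781.43 TPM, a mean of 1789.4 ± 11.3 TPM (SD, n = 2). It ranked 33 among nuclear protein-coding genes, where Hsp90ab1 ranked 82 and Hsp90aa1 ranked 206. Both libraries of Hspa8 were above both of Hsp90ab1, by 1.70 ± 0.0122 times. Hspa8-202, the form without the 57-base stretch, held 56.6% ± 0.62 of TPM and 73.0% ± 0.239 of reads. Hspa8-201, the form with it, held 12.4% ± 0.169 of TPM and 19.1% ± 0.113 of reads (SD, n = 2). The retained-intron model Hspa8-204, of 456 nt, spans that stretch as well and held 30.6% ± 0.668 of TPM and 7.33% ± 0.216 of reads. Between the 2 complete coding forms, use of the stretch and use of the upstream start cannot be told apart. No complete coding model has the stretch without that start. Hspa8-204 has the stretch and lacks the upstream start, so the share given to Hspa8-202 does not measure how often the stretch was left out.

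Hspa8 had 11 annotated pseudogene copies, which held 1.30% ± 0.29 of the reads of gene and copies together. Gm8355, 99.1% identical over 1475 bases, held 688.8 and 754.6 reads, and Gm15459, 99.7% identical, held 0 and 93.4. The deposited posterior SD of the Hspa8 count was 100.2 and 94.6 reads of 63583 and 56350, the largest of the 10 members. It was 0 in both libraries for 5 of the 10. The snoRNA genes Snord14c, Snord14d and Snord14e inside Hspa8 were listed at 0 reads in libraries of RNA longer than 200 nt.

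The heat-inducible relatives of Hspa8 were low. Hspa1a had 5.21 and 5.02 TPM and Hspa1b had 0.10 and 0.09 TPM, and their coding sequences were 99.6% identical with a shared run of 638 bases. Reads matching both genes had to be divided between them, and the deposited posterior SD was 5.37 and 7.29 reads around 352.7 and 307.5 for Hspa1a, and 3.14 and 3.83 reads around 6.60 and 5.48 for Hspa1b. Hspa8 stood 343 ± 6.67 times above Hspa1a in gene TPM (SD, n = 2). Over complete coding transcripts alone Hspa8 had 1235.5 TPM, so the size of this ratio also depends on the transcripts counted. Hspa5, the form of the endoplasmic reticulum also called BiP, had 745.6 ± 1.44 TPM. Hspa4, Hsph1 and Hspa4l, of the HSP110 group of exchange factors, had 67.6 ± 1.29, 31.5 ± 1.73 and 28.9 ± 0.827 TPM (SD, n = 2). Hspa13, Hspa2 and Hspa1l had 22.7, 18.7 and 2.45 TPM on average. Of the 10 genes of this list that matched a row, 9 were detected. The transcription factors that drive heat shock genes, Hsf1 and Hsf2, had 31.9 ± 0.785 and 20.5 ± 0.735 TPM, and Hsf4 was at 0.00 and 0.08 TPM.

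**Figure D4:**
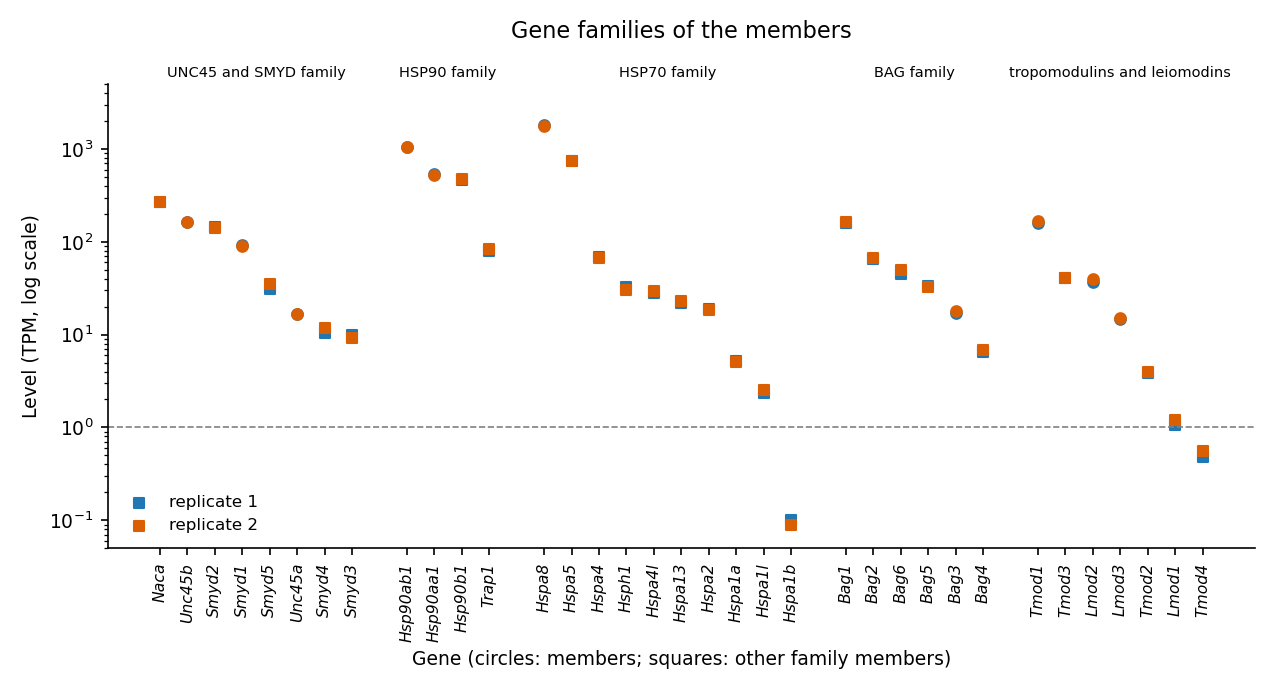
Level in TPM (y axis, log scale) of the listed and matched genes of the 5 families in replicates 1 and 2. Members are circles, other listed genes are squares, and the dashed line is 1 TPM. Hspa8 stands 343 times above Hspa1a in gene TPM, and only Bag4 lies below Bag3 among 6 BAG genes. Tmod4 and Hspa1b lie under the line in both libraries.

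Bag3 (chr7:128523616-128546981, plus strand), the HSC70 cochaperone of the muscle Z-disc, had 17.29 and 17.75 TPM, a mean of 17.5 ± 0.325 TPM (SD, n = 2), from 1 annotated transcript. Smyd1 was 5.18 ± 0.21 times above it. All 6 BAG genes were detected, and only Bag4 had a lower level than Bag3. Bag1, also a nucleotide exchange factor for HSC70, led with 161.4 ± 3.63 TPM, 9.17 ± 0.0367 times Bag3. Bag2, Bag6 and Bag5 had 66.5 ± 1.41, 47.3 ± 2.91 and 33.2 ± 0.785 TPM, and Bag4 had 6.63 ± 0.212 TPM (SD, n = 2). The 5 genes that work with BAG3 in clearing filament proteins were all detected, with a median of 74.0 TPM. They were led by Sqstm1, an autophagy receptor, at 171.8 TPM, Stub1, the ubiquitin ligase CHIP, at 165.1 TPM, and the BAG3 client Flnc, or filamin C, at 74.0 TPM. All 5 were above Bag3 itself, the lowest at 30.8 TPM.

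Tmod1, a pointed-end cap of thin filaments in heart and skeletal muscle, lies at chr4:46038935-46116032 on the plus strand. It had 159.28 and 165.51 TPM, a mean of 162.4 ± 4.41 TPM (SD, n = 2). Tmod1-201 held 98.9% ± 1.06 of it. Its level could not be told apart from that of Unc45b: Unc45b over Tmod1 was 1.02 in replicate 1 and 0.996 in replicate 2. Tstd2 overlaps one end of Tmod1 on the opposite strand and held 1554 and 1308 reads, beside 11326 and 10778 for Tmod1. The deposited posterior SD of the Tmod1 count was 28.99 and 29.74 reads, and the part of the overlap in it was not tested. Red cell markers summed to 32461 and 29154 TPM, and the part of red cells in the level of Tmod1 was not tested. Lmod2, the main leiomodin of the heart, lies at chr6:24597762-24605414 on the plus strand and had 37.23 and 40.18 TPM, a mean of 38.7 ± 2.09 TPM. Lmod3, best known from skeletal muscle, lies at chr6:97238534-97252759 on the minus strand and had 14.60 and 15.08 TPM, a mean of 14.8 ± 0.339 TPM (SD, n = 2).

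Tmod1 was 4.19 ± 0.112 times above Lmod2, and Lmod2 was 2.60 ± 0.0806 times above Lmod3 (SD, n = 2). Both orders held in both libraries and were told apart. Tmod3, the tropomodulin of many cell types, had 40.8 ± 0.375 TPM. The ratio of Tmod3 over Lmod2 was 1.06 ± 0.0471, which was not told apart from 1. Tmod2, the neural form, had 3.92 ± 0.0636 TPM, and Lmod1, the smooth muscle form, had 1.06 and 1.19 TPM. Tmod4, the skeletal muscle form, had 0.48 and 0.56 TPM and was the only one of the 7 genes of this family not detected. Beside the level of Lmod3, 1 of the 9 skeletal muscle markers was detected, Myog, at 1.00 and 1.74 TPM. Tnnc2 had 0.30 and 1.30 TPM, and Myod1, Myf5, Pax7, Myh3, Myh8, Ryr1 and Cacna1s were under 1 TPM in both libraries. The part of skeletal muscle in the level of Lmod3 was not tested.

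**Figure D5:**
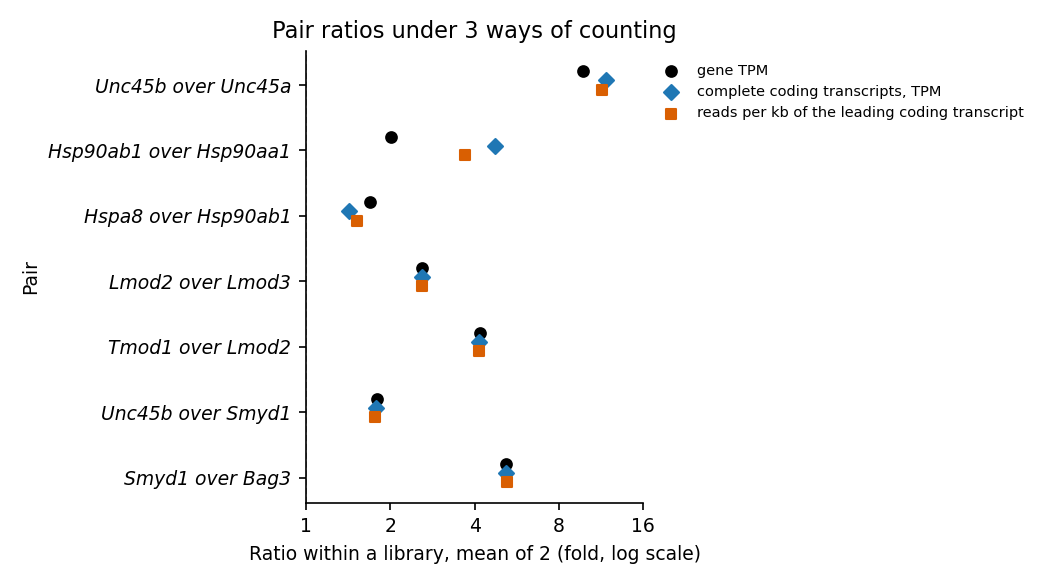
Ratio within a library, mean of 2 libraries (x axis, fold, log scale), for the 7 gene pairs, from gene TPM (circles), complete coding transcripts alone (diamonds) and all reads per kilobase of the leading complete coding transcript (squares). Every ratio lies above 1 in each form, and Hsp90ab1 over Hsp90aa1 moves most, at 2.01, 4.73 and 3.70.

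The members were set beside the proteins they serve, in pairs chosen after the values were seen. Myh7, the slow or beta myosin heavy chain, stood 19.1 ± 0.499 times above Unc45b in TPM, and Myh6, the alpha heavy chain, 6.67 ± 0.487 times. Cardiac actin, Actc1, stood 60.4 ± 2.11 times above Tmod1 and 253 ± 15.6 times above Lmod2 (SD, n = 2).

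Of 91 matched genes in 12 lists that are not members, 88 were detected, and the exceptions were Hspa1b, Tmod4 and Hsf4. The 17 HSP90 cochaperones had a median of 73.4 TPM and were led by Ptges3, or p23, at 302.6 TPM, Fkbp4 at 241.5 TPM and Nudc at 219.8 TPM. Among 9 J-proteins, which stimulate HSC70, the median was 50.3 TPM and Dnaja1, Dnajc7 and Dnaja2 led with 246.7, 173.0 and 109.8 TPM. The 8 subunits of the CCT chaperonin, which folds actin, had a median of 275.3 TPM, with Cct3 at 353.0 TPM, Tcp1 at 339.7 TPM and Cct5 at 318.2 TPM. Of the 16 other thin-filament factors, Cfl1 and Dstn, which sever actin, had 1313.3 and 793.1 TPM, and Capzb, a subunit of the barbed-end cap, had 324.8 TPM. Among 8 genes of myosin turnover, Vcp, an unfolding ATPase, had 468.9 TPM, and the muscle ubiquitin ligases Trim55 and Trim63 had 160.3 and 75.3 TPM.

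The members differed little between the libraries. None of the 10 was more than 1.2-fold apart, beside 14.3% of 13529 protein-coding genes with a mean of at least 20 reads and 8.13% of the 11696 with at least 100. Every member lies in the second set, and 0 of 10 is close to what its share gives. The largest difference was that of Lmod2, 1.08-fold higher in replicate 2. Replicate 2 was the higher for 7 of the 10 members and for 56.6% of those 13529 genes. Liver markers, by contrast, summed to 133.0 TPM in replicate 1 and 28.1 TPM in replicate 2, with all 4 detected in both. The read counts behind the members ran from 690 for Lmod3 in replicate 2 to 63583 for Hspa8 in replicate 1.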

How the data were processed

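Total RNA was measured in 2 libraries of 1 group. Extraction used mirVana, per the labels' protocols, which also cite a SMARTer low-input manual. Reads were placed on mm10 with the GENCODE M4 annotation, per the deposited sample notes. The sources used here do not give the aligner, the quantifier, their versions or the use of strand. The deposited expected count divides shared reads among genes. The deposited TPM is a length-scaled share over all rows, and the deposited FPKM scales fragments by length and library size. The deposited percent per transcript was not used in place of shares recomputed from TPM. The deposited posterior SD of a count was read as a score of uncertain read division. Effective length was transcript length minus 99 bases. Rows naming no mouse gene held 3.66% and 3.71% of reads and stayed out of gene counts.

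Members, lists and pairs were chosen with earlier results of these data known. Named genes are all members, each matched gene of the family lists, the 3 highest genes of each list and every undetected list gene. Transcripts are named at 5% or more of a member. Other pairs and genes were chosen after their values were seen. Detection was 1 TPM in both libraries. Pairs were compared within a library by the log2 ratio of TPM + 0.1, with standard errors from the robust SD between libraries in 20 abundance bins; this scale understates ratios of low genes. A complete coding transcript has an annotated coding sequence closed at both ends in GENCODE M21, which named 42462 gene rows on the same GRCm38 build. Hspa14 matched no row. Copies were found with blastn 2.17.0. Expected counts were rounded for edgeR 4.0.16 and DESeq2 1.42.0, used for scaling factors only, in R 4.3.3; other values used Python 3.11.15, pandas 2.3.3 and numpy 2.4.6. The pair and library steps were tested on simulated data. No fit or p-value was made, and the spread between libraries sets the precision.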

Additional observations from a re-analysis of the deposited data

How the results depend on the processing

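All 7 chosen ratios kept their direction and stayed told apart under FPKM, posterior mean TPM, a scale over protein-coding genes, a pseudocount of 1 TPM, unscaled read counts, each library alone, complete coding transcripts alone and reads per kilobase of the leading coding transcript, the last pair being added after seeing the data. Besides the HSP90 pair, Tmod1 over Lmod2 moved past 1.5 times its value, to 6.80 in unscaled counts, and Hsp90aa1 over Unc45b, 3.21 in TPM, was 1.13 over complete coding transcripts and 1.52 per kilobase. Of the 3 neighbours not told apart, Bag3 over Unc45a was 0.992 in posterior mean TPM and 1.28, told apart, over complete coding transcripts. Unc45a over Lmod3 was 0.921 over complete coding transcripts, 0.951 per kilobase and 1.19, told apart, in posterior mean TPM; Unc45b over Tmod1 was 0.996 without replicate 1 and 1.02 without replicate 2. The cause of these changes was not tested. Counts of detected members stayed at 10 up to a threshold of 10 TPM, and no member passed 1.1-fold between libraries. No paired analysis was possible because there is 1 group and no contrast. With 2 libraries an SD has 1 degree of freedom, and levels between genes rest on the annotated lengths.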
